A study of Mus musculus with 8 samples.

Results

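The genes described here are 10 genes of the type 2 and interleukin-9 response of T cells, named as Il4, Il5, Il13, Il9, Il10, Gata3, Il1rl1, Maf, Areg and Il4ra. They were measured, where a probe set carried the symbol, in mouse splenic T cells kept for 48 h with human beta-defensin-2 (hBD-2), a cationic antimicrobial peptide of epithelia, or with its vehicle, phosphate-buffered saline (PBS). Of the 10 genes, 7 had a probe set in the annotation used here, 1 each, out of 19505 named genes. Gata3, the master transcription factor of Th2 cells, Il1rl1, the interleukin-33 receptor, and Areg, an epidermal growth factor receptor ligand, were not analysed here.

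Each group held 4 arrays, numbered as replicates 1 to 4. The hBD-2 group was wild-type male C57BL/6 splenic T cells, CD4 and CD8 cells together, isolated untouched, stimulated with anti-CD3 and anti-CD28 beads and given hBD-2, an amount the labels state as a volume per volume, so its mass concentration is unknown. The PBS group was the same cells with the same beads and vehicle. Cells came from 4 mice whose age the labels do not give, and which array came from which mouse is not stated, so the p-values measure the spread between these arrays. In a mixture of CD4 and CD8 cells, fewer cells making a transcript and less transcript per cell cannot be told apart.

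Th2 cells are the CD4 helper cells of allergy and worm infection. Interleukin-4 and interleukin-13 act through receptors that share the interleukin-4 receptor alpha chain and signal through STAT6, interleukin-5 sustains eosinophils, and interleukin-9 acts on mast cells and epithelium. GATA3 and c-MAF drive these genes in T cells, and Il4, Il13 and Il5 lie close together, with Rad50 between Il13 and Il5, in 1 cluster whose chromatin opens together in Th2 cells. The beads stimulate cells without added polarising cytokine, as far as the labels say.

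The promoter windows of the 4 cytokine genes Il9, Il13, Il5 and Il4 are shown because Il9 is the gene that passed the test and the other 3 share the Th2 cluster. Sequences are RefSeq's for the build GRCm38.p6, 5′ to 3′ on the gene's strand, 250 bases before the start and 50 after it. Windows were listed for 8 of the 10 genes. They lie at chr13:56482208-56482507 for Il9 (minus strand), chr11:53634653-53634952 for Il13 (minus), chr11:53720544-53720843 for Il5 (plus) and chr11:53618616-53618915 for Il4 (minus, the upstream window of the 2 listed). Capitals mark matches, on either strand, to a GATA motif (A or T, then GATA, then A or G), an NFAT core (GGAAAA), an AP-1 motif (TGANTCA) or a STAT motif (TTC, any 4 bases, GAA).
Il9: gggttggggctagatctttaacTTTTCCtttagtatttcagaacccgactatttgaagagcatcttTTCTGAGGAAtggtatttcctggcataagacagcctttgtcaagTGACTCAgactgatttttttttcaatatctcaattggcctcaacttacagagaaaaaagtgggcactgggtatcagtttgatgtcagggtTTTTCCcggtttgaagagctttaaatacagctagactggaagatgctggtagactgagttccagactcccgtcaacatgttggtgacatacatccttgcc
Il13: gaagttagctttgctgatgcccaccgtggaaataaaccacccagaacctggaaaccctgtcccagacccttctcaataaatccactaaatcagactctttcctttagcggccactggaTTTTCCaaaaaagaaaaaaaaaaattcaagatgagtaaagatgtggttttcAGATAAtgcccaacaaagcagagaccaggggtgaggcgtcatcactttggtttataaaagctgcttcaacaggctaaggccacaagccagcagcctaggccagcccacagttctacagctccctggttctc
Il5: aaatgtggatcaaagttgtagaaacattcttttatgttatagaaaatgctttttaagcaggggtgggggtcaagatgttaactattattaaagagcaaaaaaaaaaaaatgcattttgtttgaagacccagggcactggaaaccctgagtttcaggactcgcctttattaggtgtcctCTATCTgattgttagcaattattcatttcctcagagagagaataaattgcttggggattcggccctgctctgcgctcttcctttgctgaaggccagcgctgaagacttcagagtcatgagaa
Il4: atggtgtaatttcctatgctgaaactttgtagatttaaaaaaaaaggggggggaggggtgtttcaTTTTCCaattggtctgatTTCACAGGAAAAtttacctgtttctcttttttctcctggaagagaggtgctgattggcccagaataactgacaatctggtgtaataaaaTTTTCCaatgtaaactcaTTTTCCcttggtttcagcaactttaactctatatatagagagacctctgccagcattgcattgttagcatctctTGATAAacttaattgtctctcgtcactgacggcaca
The Il9 window held 2 NFAT cores, 1 AP-1 motif, 1 STAT motif and no GATA motif. The Il13 window held 1 NFAT core and 1 GATA motif, and the Il5 window 1 GATA motif. The Il4 window held 4 NFAT cores, 1 GATA motif and 1 STAT motif that overlaps an NFAT core. Among all 32851 RefSeq promoter windows of this length, 29.8% held a GATA motif, 23.4% an NFAT core, 7.81% an AP-1 motif and 6.95% a STAT motif, so each match is a description of these letters and not a bound site.

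Of the 7 measured genes, 1 changed in cells kept with hBD-2. Il9 rose 1.42-fold, and Il13, Il4, Il5, Il10, Maf and Il4ra did not pass the test, which was limma's moderated test with Benjamini-Hochberg adjustment over all genes and a threshold of 0.05. Over all 19505 genes 4.46% passed, 0.8% upward and 3.66% downward. The 7 genes were chosen with earlier results of these data known, so the count of 1 is no test against these shares. An unadjusted p under 0.05 in limma was found for 22.3% of all genes, the share beside which later counts at that level stand. Of the 7 genes, 4 had one, Il4 with a lower value and Il5, Il13 and Il9 with higher values. The median log2 fold change of the 7 genes was 0.18, and that of all genes 0.02. Dim genes as a class lay slightly higher with hBD-2, with a median of 0.06 for olfactory receptor genes and 0.07 for the genes in the lowest 40% of mean level.

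How far each gene stood above the arrays' floor matters for these values, since the robust multi-array average (RMA) method compresses dim signals and no detection calls were used. The floor was taken on each array as the 95th percentile of 1091 probe sets of olfactory receptor genes, which have no known role in T cells, and lay at log2 values of 4.28 to 4.59. Il13, Maf and Il4ra were above it on all 8 arrays. Il9, Il4 and Il10 were below it on all 8, and Il5 was above it on 1 array, hBD-2 replicate 1. Olfactory receptor genes themselves passed the test upward in 2 of 1091 cases (0.183%) and downward in 0, where limma gave 15 of them an unadjusted p under 0.05 downward. Of 7802 genes below the percentile 40 of mean level, 0.577% passed upward and 0.333% downward.

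Il9, the gene of interleukin-9, had log2 values of 3.64, 3.60, 3.61 and 4.06 on hBD-2 replicates 1 to 4, against 3.26, 3.07, 3.22 and 3.32 on PBS replicates 1 to 4. The groups did not overlap, and hBD-2 replicate 4 stood above the other hBD-2 arrays. The means were 3.73 ± 0.223 with hBD-2 and 3.22 ± 0.109 with PBS (SD, n = 4 each), a log2 fold change of 0.51 (SE 0.119, 95% interval 0.25 to 0.77, adjusted p in limma = 0.0376). An exact permutation test of the 8 values, two-sided, gave p = 0.0286, the smallest that 4 arrays against 4 allow. Among the olfactory receptor probe sets of its own array, Il9 exceeded 77.9% to 89.1% on the hBD-2 arrays and 57.8% to 71.5% on the PBS arrays. Its rise was thus measured wholly within the range of genes that T cells are not known to express. The call was lost under each of 3 repeated normalizations, quantile (adjusted p in limma = 0.0583), cyclic loess (0.0584) and removal of each array's level trend (0.0603), and without PBS replicate 1 (0.0839), 2 (0.109), 3 (0.0688) or 4 (0.0742) or hBD-2 replicate 3 (0.0667) or 4 (0.0791).

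**Figure D1:**
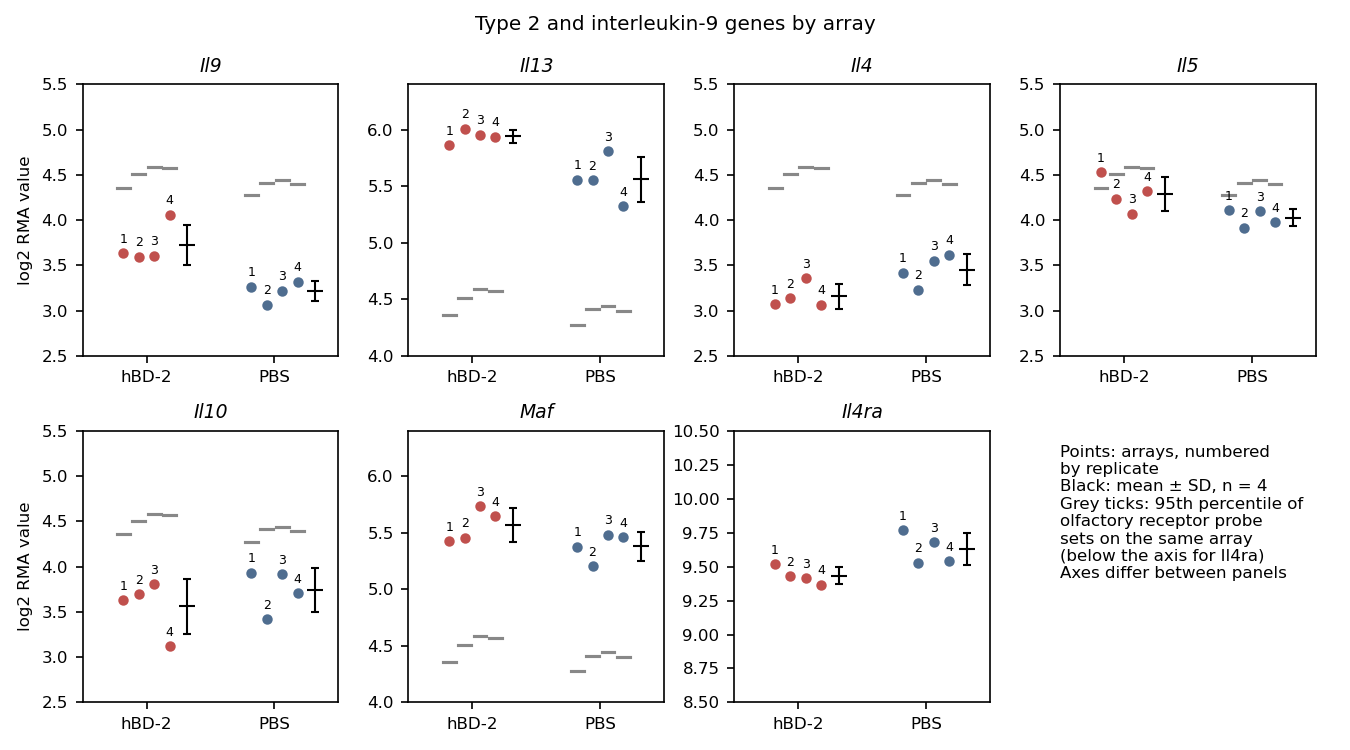
Deposited log2 RMA values (vertical axes, which differ between panels) of the 7 measured genes on the 4 hBD-2 and 4 PBS arrays, each point an array numbered by replicate, with mean ± SD in black and the olfactory receptor floor of that array as a grey tick. Il9, Il4 and Il10 lie under the ticks throughout, Il13 and Maf above them, and Il4ra so far above that its ticks are off the axis.

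Il13, the gene of interleukin-13, was the Th2 cytokine measured clear of the floor. Its log2 values were 5.86, 6.01, 5.95 and 5.94 on the hBD-2 arrays, against 5.56, 5.55, 5.81 and 5.32 on the PBS arrays. Every hBD-2 array was above every PBS array, with PBS replicate 3 closest, and the hBD-2 arrays lay closer together. The mean was 5.94 ± 0.0604 with hBD-2 and 5.56 ± 0.199 with PBS (SD, n = 4 each), a log2 fold change of 0.38 (SE 0.109, 95% interval 0.14 to 0.62). It missed the threshold over all genes (adjusted p in limma = 0.0729), while the exact permutation test gave its smallest possible p of 0.0286. With genes below the percentile 40 of mean level left out of the fit, Il13 passed (adjusted p in limma = 0.0345), as it did without PBS replicate 3 (0.0393). It passed under no other alternative. The adjusted p in limma was 0.0691 with quantile normalization, 0.0807 with cyclic loess and 0.0829 with the level trend removed. Without any other single array it was up to 0.175.

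Il4 and Il5, the other cytokine genes of the cluster, had estimates of opposite sign and neither passed. Il4, the gene of interleukin-4, had log2 values of 3.07, 3.14, 3.36 and 3.07 with hBD-2 and 3.42, 3.23, 3.55 and 3.62 with PBS. The groups overlapped, since hBD-2 replicate 3 exceeded PBS replicate 2, and the log2 fold change was -0.29 (95% interval -0.54 to -0.05, adjusted p in limma = 0.153). Il5, the gene of interleukin-5, had log2 values of 4.53, 4.24, 4.07 and 4.32 with hBD-2 and 4.11, 3.92, 4.10 and 3.98 with PBS. Here too the groups overlapped, hBD-2 replicate 3 lying under PBS replicates 1 and 3, and the log2 fold change was 0.26 (95% interval 0.02 to 0.51, adjusted p in limma = 0.187).

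Il10, the gene of the anti-inflammatory interleukin-10, which Th2 and other helper cells make, had log2 values of 3.63, 3.70, 3.80 and 3.12 with hBD-2 and 3.93, 3.42, 3.92 and 3.70 with PBS. The groups overlapped and hBD-2 replicate 4 was the lowest array. The log2 fold change was -0.18 (95% interval -0.53 to 0.17, adjusted p in limma = 0.547), and without hBD-2 replicate 4 it was -0.03.

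Il4ra, the receptor chain shared by interleukin-4 and interleukin-13, stood far above the floor, exceeding 95.1% to 95.4% of all probe sets on the hBD-2 arrays and 95.3% to 96.3% on the PBS arrays. Its log2 values were 9.52, 9.43, 9.42 and 9.37 with hBD-2, against 9.77, 9.53, 9.68 and 9.54 with PBS. The groups did not overlap, but hBD-2 replicate 1 and PBS replicate 2 almost met. The log2 fold change was -0.20 (SE 0.0924, 95% interval -0.40 to 0.01, adjusted p in limma = 0.237). Under the repeated quantile, cyclic loess and level trend normalizations it was -0.12, -0.11 and -0.12.

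Maf, the transcription factor that activates Il4 and Il10 in T cells, had log2 values of 5.43, 5.45, 5.74 and 5.65 with hBD-2 and 5.38, 5.20, 5.48 and 5.46 with PBS. The groups overlapped. The log2 fold change was 0.18 (SE 0.106, 95% interval -0.05 to 0.42, adjusted p in limma = 0.333).

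**Figure D2:**
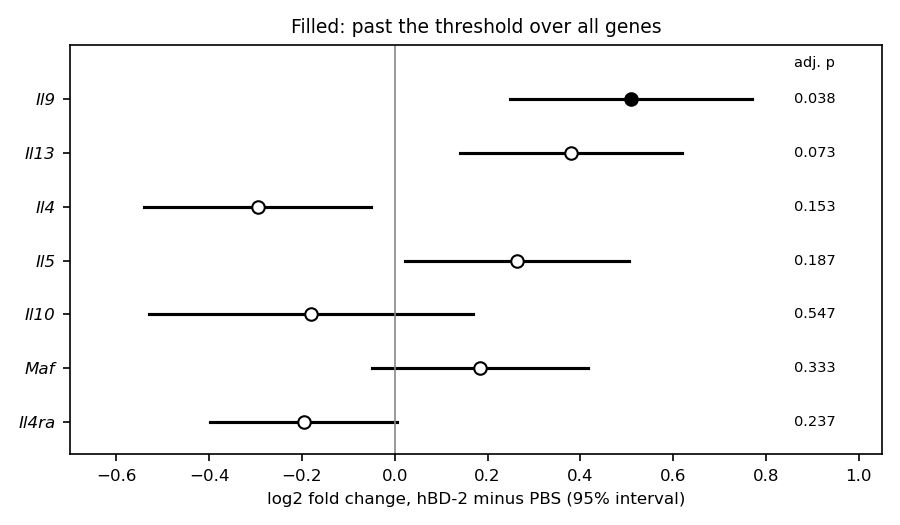
Log2 fold change, hBD-2 minus PBS, of each measured gene (horizontal axis) with its 95% interval as a line and the adjusted p in limma over all genes at the right. Il9 at 0.51 is the filled point past the threshold, and the intervals of Il10, Maf and Il4ra span 0.

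Among the 7 genes the groups did not overlap for 3, Il9, Il13 and Il4ra, where 14.9% of all genes did not overlap. The interquartile range of values was narrowest on hBD-2 replicates 3 and 4, at 3.45 on both, against 3.57 to 3.76 on the other 6 arrays, and hBD-2 replicate 1 at 3.64 lay within the PBS range of 3.64 to 3.76. Without those 2 arrays 0 of the 7 genes passed in limma, with 4 at an unadjusted p under 0.05, and the log2 fold change of Il9 was 0.40 (adjusted p in limma = 0.179). The same omission ended every call described below except those of Prdm1 and Nfil3.

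Receptors and signalling genes downstream of these cytokines did not pass in any of 16 measured cases, with a median log2 fold change of 0.03. Of the 16, 3 had an unadjusted p under 0.05 in limma, where 22.3% of all genes did. Of the 3 with the smallest p, Il10ra, a chain of the interleukin-10 receptor, was at 9.95 ± 0.172 with hBD-2 and 10.3 ± 0.0653 with PBS (SD, n = 4 each; log2 fold change -0.38, adjusted p in limma = 0.0644). Il1rap, the co-receptor of the interleukin-33 and interleukin-1 receptors, had a log2 fold change of -0.43 (adjusted p in limma = 0.0864). Csf2rb, the common beta chain of the interleukin-5 receptor, had one of 0.43 (adjusted p in limma = 0.150). Stat6, the transcription factor of interleukin-4 signalling, had one of -0.10 and lay above the floor on all arrays, and Il9r, the interleukin-9 receptor, had one of 0.30 (adjusted p in limma = 0.548 and 0.235).

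Of 18 measured regulators of Th2 differentiation, 1 fell and none rose, where 3.66% of all genes fell and 0.8% rose. Of the 18, 4 had an unadjusted p under 0.05 in limma, where 22.3% of all genes did. Rbpj, the DNA-binding partner of Notch, was at 8.11, 8.04, 7.69 and 7.91 with hBD-2, against 8.63, 8.49, 8.27 and 8.55 with PBS. Every hBD-2 array was below every PBS array, and Rbpj fell 1.46-fold (log2 fold change -0.54, SE 0.118, adjusted p in limma = 0.0271). The call was lost without hBD-2 replicate 3 or 4 or PBS replicate 1, 2 or 4 (highest adjusted p in limma = 0.0847). Nfatc2, a calcium-regulated factor of cytokine genes, and Ets1 had log2 fold changes of -0.33 and 0.30 and did not pass (adjusted p in limma = 0.0757 and 0.0808).

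None of 22 measured regulators of interleukin-9 passed, and their median log2 fold change was 0.09. Of the 22, 10 had an unadjusted p under 0.05 in limma, where 22.3% of all genes did. Irf4 and Irf8, interferon regulatory factors that act on Il9 in T cells, had log2 fold changes of -0.52 and -0.39 (adjusted p in limma = 0.0928 and 0.0649). Irf1 had log2 values of 10.52 to 10.54 on the hBD-2 arrays and 10.20 to 10.33 on the PBS arrays. Its groups did not overlap, and its log2 fold change of 0.30 missed the threshold (adjusted p in limma = 0.0649). It passed under all 3 repeated normalizations, with a variance trend and robust estimation, and with dim genes left out.

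Regulators of interleukin-10 fell in 4 of 10 cases and none rose, where 3.66% of all genes fell. Their median log2 fold change was -0.22. Of the 10, 5 had an unadjusted p under 0.05 in limma, where 22.3% of all genes did. This list, like the others, was chosen with earlier results of these data known, so neither count is a test of it. Prdm1, the gene of BLIMP-1, a transcriptional repressor that supports Il10, was at 3.79, 4.64, 4.53 and 4.08 with hBD-2, against 5.81, 5.77, 5.34 and 5.81 with PBS. It was above the floor on all PBS arrays and on 1 hBD-2 array, replicate 2, and it fell 2.68-fold (adjusted p in limma = 0.00183). Nfil3, a basic leucine zipper factor that regulates Il10 and Th2 cytokine genes in mouse helper cells, was at 6.08, 6.10, 5.71 and 5.70 with hBD-2, against 7.20, 7.03, 7.07 and 6.86 with PBS, a fall of 2.20-fold (adjusted p in limma = 0.0007). Both calls held under all alternatives run. Icos, a co-stimulatory receptor of helper cells, and Bhlhe40, a repressor of Il10, fell 1.33-fold and 1.45-fold (adjusted p in limma = 0.0307 and 0.0442). Omitting 1 array ended each of these calls in 6 of 8 cases (adjusted p in limma up to 0.0965 for Icos and 0.123 for Bhlhe40), as did repeating the quantile normalization. Bhlhe40 also lost its call under the other 2 repeated normalizations. Icos kept its call without hBD-2 replicate 1 or PBS replicate 3, and Bhlhe40 without hBD-2 replicate 1 or 2. Beside these falls in its regulators, Il10 itself was under the floor in both groups.

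Of 17 genes listed as other type 2 cytokines, homing receptors and related genes, 2 fell and none rose, where 3.66% of all genes fell. Of the 17, 7 had an unadjusted p under 0.05 in limma, where 22.3% of all genes did. Ccr4, a chemokine receptor of Th2 cells, had log2 values of 4.19, 4.03, 4.10 and 3.25 with hBD-2, against 5.45, 4.94, 4.67 and 4.82 with PBS. It was above the floor on all PBS arrays and on no hBD-2 array, and it fell 2.11-fold (adjusted p in limma = 0.0178), a call lost without PBS replicate 1 or 2 (highest adjusted p in limma = 0.0516). Plac8 fell 1.41-fold (adjusted p in limma = 0.0205), a call lost without PBS replicate 2 or 4 or hBD-2 replicate 3 or 4. Il3, the gene of interleukin-3, was at 3.40 ± 0.378 with hBD-2 and 4.03 ± 0.306 with PBS (SD, n = 4 each) and did not pass (adjusted p in limma = 0.0863). Ccl17, a ligand of CCR4, had a log2 fold change of 0.32 (adjusted p in limma = 0.114) and lay under the floor on all arrays. Ccl22, of the same list, was above the floor on all arrays, at 6.05 to 6.92 with hBD-2 and 5.21 to 6.36 with PBS. Its log2 fold change was 0.57 (adjusted p in limma = 0.214), and the groups overlapped. Ccl17 and Ccl22 were chosen after their values were seen.

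Amphiregulin was not analysed here, and of 14 measured genes of the other epidermal growth factor receptor ligands, their receptors and shedding enzymes none passed (2 at an unadjusted p under 0.05 in limma). The 3 with the smallest p were Egfr, the receptor (log2 fold change 0.28, adjusted p in limma = 0.132), Btc, the ligand betacellulin (0.32, 0.150), and Adam17, the protease that sheds amphiregulin (-0.17, 0.277).

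**Figure D3:**
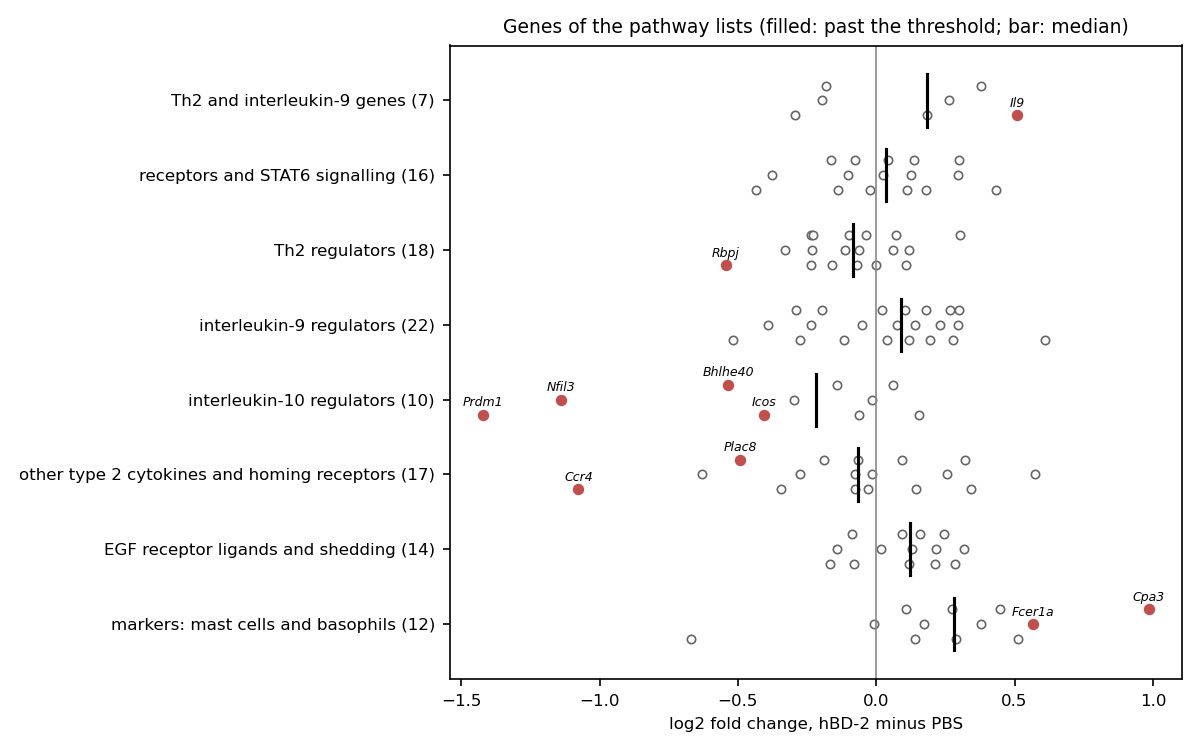
Log2 fold change, hBD-2 minus PBS (horizontal axis), of each measured gene of 6 pathway lists, the Th2 and interleukin-9 genes and mast cell and basophil markers, with the number measured in brackets, medians as bars and genes past the threshold filled and named. Prdm1 and Nfil3 lie farthest to the left, and Il9, Cpa3 and Fcer1a are the filled points to the right of 0.

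Of 15 measured genes near Il4, Il13, Il5, Il10, Il1rl1, Maf, Il4ra or Areg, 2 fell and none rose, where 3.66% of all genes fell. Of the 15, 6 had an unadjusted p under 0.05 in limma, where 22.3% of all genes did. These 15 are a chosen set that holds no neighbour of Il9 or Gata3 and not every gene of the Th2 cluster. In the RefSeq gene order of GRCm38.p6 the cluster on chromosome 11 runs Kif3a, Il4, Il13, Rad50, Il5 and Irf1. Kif3a, a kinesin motor gene, was at 5.52, 4.90, 4.72 and 5.09 with hBD-2, against 5.82, 5.86, 5.60 and 5.65 with PBS. It fell 1.60-fold (adjusted p in limma = 0.0335). Leaving out any single array but hBD-2 replicate 1 or PBS replicate 3 ended this call (adjusted p in limma up to 0.0971). Rad50, a DNA repair gene whose introns hold the cluster's locus control region, had a log2 fold change of 0.12 (95% interval -0.10 to 0.34, adjusted p in limma = 0.522). Next to Il1rl1 on chromosome 1, Il18rap, a chain of the interleukin-18 receptor, fell 2.01-fold (adjusted p in limma = 0.0048) and Il18r1 had a log2 fold change of -0.58 (adjusted p in limma = 0.121). On the other side of Il1rl1, Il1rl2 and Il1r1 had log2 fold changes of -0.29 and 0.23 and did not pass (adjusted p in limma = 0.307 and 0.145). Il19, Il20 and Il24, the interleukin-10 family genes beside Il10, lay under the floor on all arrays with log2 fold changes of 0.03, 0.08 and -0.19, that of Il19 being below 0 under all 3 repeated normalizations. Mapkapk2 on the other side of Il10, Wwox beside Maf and Il21r beside Il4ra had log2 fold changes of 0.24, 0.20 and -0.14 (adjusted p in limma = 0.330, 0.263 and 0.563). Ereg, next to Areg, had one of -0.08, which was 0.03 without hBD-2 replicate 2.

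Mast cells and basophils also make type 2 cytokines, and some of their markers differed between the groups. All 11 T cell markers were above the floor on all arrays, and none passed (1 at an unadjusted p under 0.05 in limma). Of 12 mast cell and basophil markers 2 rose and none fell, where 0.8% of all genes rose. Of the 12, 6 had an unadjusted p under 0.05 in limma, Kit among them with a lower value, where 22.3% of all genes did. Their median log2 fold change was 0.28. On a linear scale their summed level was 348 to 443 on the hBD-2 arrays and 326 to 363 on the PBS arrays. Cpa3, a mast cell carboxypeptidase, was at 5.34, 4.82, 5.47 and 5.94 with hBD-2, against 4.44, 4.40, 4.33 and 4.47 with PBS (1.98-fold higher, adjusted p in limma = 0.0132). Every hBD-2 array was above every PBS array. Cpa3 was above the floor on all hBD-2 arrays but under it on PBS replicates 2 and 3. On PBS replicates 1 and 4 it exceeded the floor by log2 values of 0.16 and 0.07. Fcer1a, the alpha chain of the IgE receptor, was at 4.39, 4.17, 4.12 and 4.48 with hBD-2, against 3.42, 3.89, 3.87 and 3.72 with PBS (1.48-fold higher, adjusted p in limma = 0.0323), and was above the floor on 1 array, hBD-2 replicate 1. The call of Fcer1a was lost with the replicate number as a block, with repeated quantile normalization, with removal of the level trend and without PBS replicate 1, 2 or 4 or hBD-2 replicate 4 (highest adjusted p in limma without 1 array = 0.0940). Kit, the stem cell factor receptor of mast cells, had a log2 fold change of -0.67 (adjusted p in limma = 0.0744).

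The array with the highest Il9, hBD-2 replicate 4, was also the highest hBD-2 array for 6 of these 12 markers, Cpa3, Mcpt8, Prss34, Fcer1a, Hdc and Gata2, and the lowest for 1, Tpsb2 (5.74, the others 5.80 to 6.09). This was not particular to these markers. The same array was highest for 5 of 9 myeloid markers and lowest for 2, and highest for 2 of 5 B cell markers and lowest for 0. Mcpt8, a basophil protease, was at 4.74, 4.90, 4.93 and 6.05 on hBD-2 replicates 1 to 4, against 4.60, 4.64, 4.64 and 4.69 on the PBS arrays (adjusted p in limma = 0.219). Gata2, a factor of mast cells and basophils, was at 5.44, 5.58, 5.53 and 5.93 with hBD-2, against 5.49, 5.13, 5.06 and 5.00 with PBS (adjusted p in limma = 0.0868). Both genes were chosen after their values were seen. Of the 7 type 2 and interleukin-9 genes, Il9 was highest of its group on hBD-2 replicate 4, and Il4, Il10 and Il4ra were lowest. Mcpt8, Prss34, Tpsb2, Kit and Gata2 were above the floor on all 8 arrays, and Mcpt4, Tpsab1, Cma1 and Ms4a2 on none. Without hBD-2 replicate 4 the log2 fold change of Il9 was 0.40 and that of Cpa3 0.80. The part of these cells in the values of Il9 and Il13 was not tested.

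**Figure D4:**
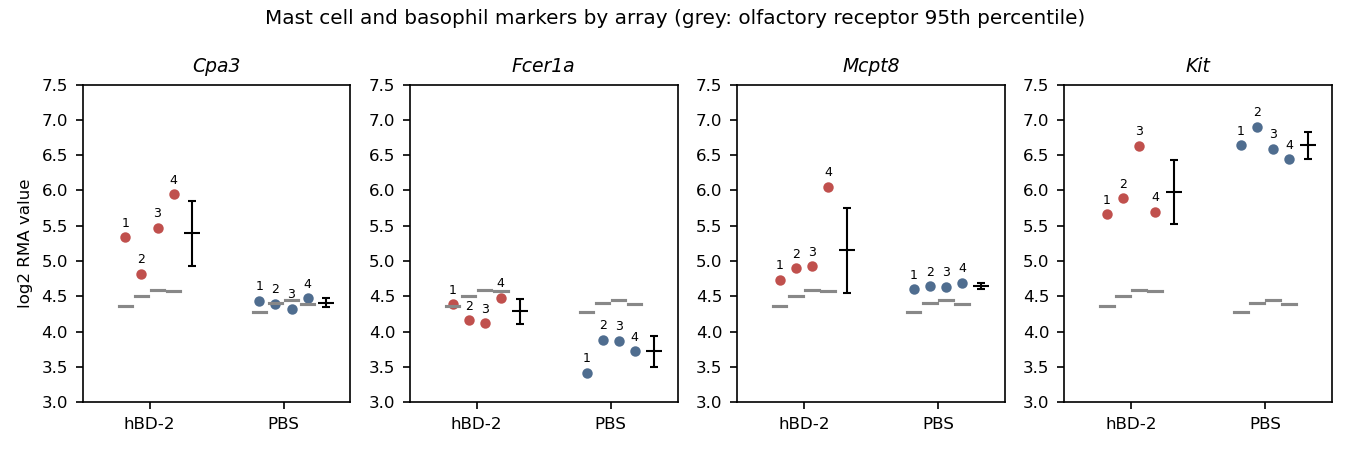
Deposited log2 RMA values (vertical axis) of 4 mast cell and basophil markers on the 4 hBD-2 and 4 PBS arrays, each point an array numbered by replicate, with mean ± SD in black and the olfactory receptor floor as grey ticks. Cpa3 is higher on every hBD-2 array, Mcpt8 stands out at 6.05 on hBD-2 replicate 4, and Kit overlaps between the groups.

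Markers of the other cells known to make these cytokines were mostly at the floor. Of 6 markers of type 2 innate lymphoid cells none passed (1 at an unadjusted p under 0.05 in limma), and Nmur1, Il17rb, Klrg1 and Arg1 were under the floor on all arrays. The remaining 2, Rora and Il7r, which T cells also express, were above it, with log2 fold changes of -0.59 and -0.14 (adjusted p in limma = 0.0926 and 0.397). The summed level of all 6 on a linear scale was 785 to 924 with hBD-2 and 916 to 1047 with PBS. Most of that sum was Il7r, so it says little of the 4 markers under the floor. Of 5 eosinophil markers none passed, nor had any an unadjusted p under 0.05 in limma, and none was above the floor on all arrays, and the summed level was 65.8 to 87.8 with hBD-2 and 64.8 to 73.0 with PBS. Siglecf, Ccr3 and Il5ra had log2 fold changes of 0.21, -0.08 and 0.30 and were under the floor on all arrays, that of Ccr3 being 0.02 without PBS replicate 1.

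The genes whose profile over the 8 arrays was most like that of Il9 were chosen by the root mean square difference of log2 values, each profile less its own mean, among 17122 named genes. They were Lrrc14b, Gkn3 and Rbm12b2, with differences of 0.0880, 0.0906 and 0.0935. They were chosen on these same 8 arrays for their likeness to Il9, so their difference between the groups is no separate result.

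**Figure D5:**
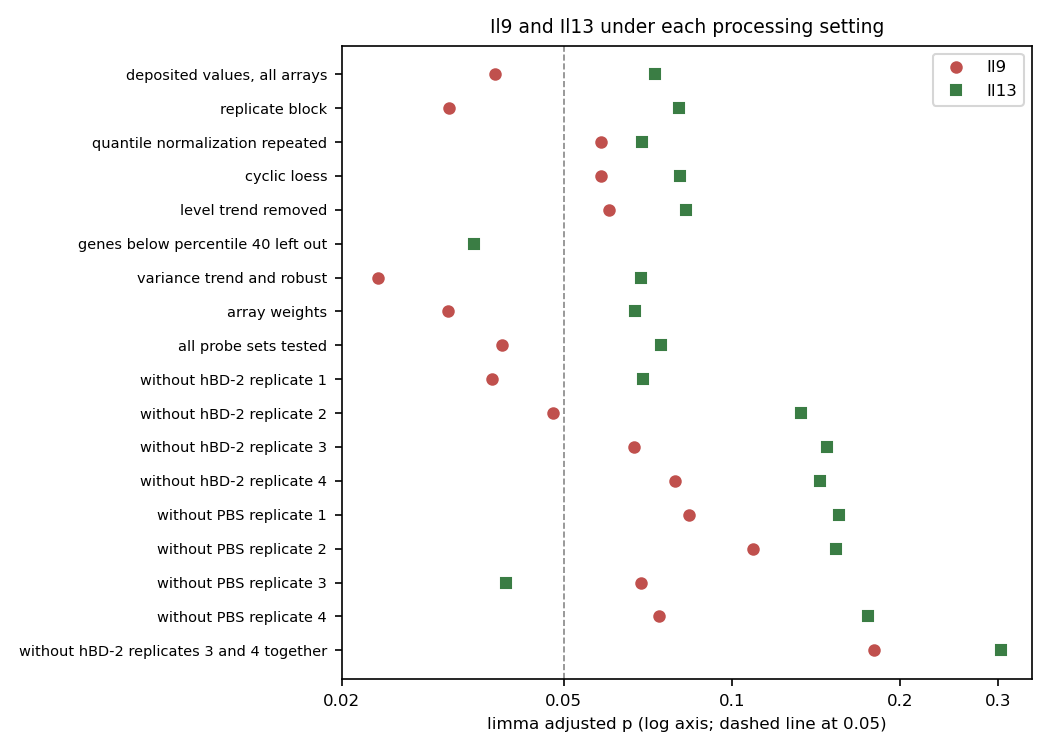
Limma adjusted p (horizontal log axis, dashed line at the threshold of 0.05) of Il9 and Il13 under each processing setting, 1 row a setting. Il9 is left of the line with the deposited values and right of it with the 3 repeated normalizations and without any of 6 single arrays, and Il13 is left of it without PBS replicate 3 or with dim genes left out.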

How the data were processed

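The deposited file held log2 expression for 22203 probe sets on 8 arrays. It was produced with oligo and RMA per the submitters' processing notes, a method with background correction, quantile normalization and median polish of probes. Versions: not given in the sources used here. A platform table gave 1 symbol for 19572 probe sets and none for 2631, which stay unnamed here. None of the symbols differed from the GRCm38.p6 gene table. Where a gene had more than 1 probe set (55 genes), the brightest on average stood for it, leaving 19505. The number of arrays limits the precision.

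hBD-2 was compared with PBS by limma 3.58.1 in R 4.3.3 (lmFit, eBayes, no block), two-sided, and p-values were adjusted by Benjamini-Hochberg across all 19505 genes. The fit was tested on simulated data. Fold changes are differences of log2 means. The genes and lists were chosen with earlier results of these data known. Named are the 10 genes, list members past 0.05 (otherwise the 3 with the smallest p), chromosomal neighbours, and the 3 genes most like a gene that passed. Alternatives were a replicate block, 3 repeated normalizations, a filter on dim genes, a variance trend, array weights, all probe sets, other floors and leaving out arrays. Leaving out hBD-2 replicates 3 and 4 together was chosen after seeing the data. The labels do not state that a replicate number is a mouse, so the numbers were not taken to pair samples. Deviations of same-numbered arrays from their group means correlated at 0.18, 0.06, 0.16 and 0.0048. Those of differently numbered arrays ran from -0.15 to 0.09, and these values do not settle whether the numbers pair samples.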

Additional observations from a re-analysis of the deposited data

Results flagged for a closer look

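In 10 of 132 groups of 4 arrays a single array stood far from the other 3 (Dixon's test at the 95% level), and chance gives about 1 in 20. With hBD-2, replicate 4 was high for Il9 (4.06, the others 3.60 to 3.64), Mcpt8 (6.05, the others 4.74 to 4.93) and Lrrc14b (4.92, the others 4.61 to 4.64), and low for Ccr4 (3.25, the others 4.03 to 4.19). Lrrc14b was chosen for its likeness to Il9, and Mcpt8 after its values were seen, so the count of 10 is no test against 1 in 20. Replicate 1 was low for Ccr3 (3.11, the others 3.22) and Siglecf (3.82, the others 4.23 to 4.30), and replicate 2 for Il1rl2 (3.82, the others 4.27 to 4.34). With PBS, replicate 3 was high for Irf1 (10.3, the others 10.2) and low for Prdm1 (5.34, the others 5.77 to 5.81), and replicate 1 was high for Il1rl2 (4.90, the others 4.29 to 4.37).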

How the results depend on the processing

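The 7 measured genes kept the sign of their log2 fold change under every alternative run. Il9 ranged from 0.40 to 0.55 and Il13 from 0.30 to 0.46. The count of these genes past the threshold, 1 with the deposited values, was 0 under quantile, cyclic loess and level trend normalization (3 each at an unadjusted p under 0.05 in limma) and with hBD-2 replicates 3 and 4 left out together (4), and 0 to 1 (2 to 4) with single arrays left out. With genes below the percentile 40 left out, 3 of the 7 remained to be tested and the 1 that passed was Il13. The count of all genes past the threshold, 869, was 1541 with that filter, 2033 with a variance trend and robust estimation, 128 without hBD-2 replicates 3 and 4, and 312 to 1396 with single arrays left out. With the replicate number as a block it was 857, and Il9 kept its call (adjusted p in limma = 0.0311). Of the other named genes the block ended the call of Fcer1a and gave one to Il18r1. An array correlated best with its own number in 3 of 4 cases read from the hBD-2 side and 2 of 4 from the PBS side, a hint from the data and not from the design. The number of genes above the floor on all arrays was 3 and became 4, Il5 being added, with the floor at the lower quartile or at vomeronasal receptor genes. Signs turned for Il19 (quantile -0.034, cyclic loess -0.035, level trend -0.037, both named hBD-2 arrays left out -0.066, and -0.092 to 0.083 with single arrays left out), Klrb1c (cyclic loess -0.0035, level trend -0.0018, and -0.13 to 0.14 with single arrays left out), Ccr3 (-0.13 to 0.020 with single arrays left out) and Ereg (-0.19 to 0.031), none of which passed. The causes were not tested. Signal limits Il9, Il4 and Il10, which lay under the floor on all arrays.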

Other observations

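Of 5 measured B cell markers, replicates 2 and 4 were both above replicates 1 and 3 for 5 in the hBD-2 group and for 4 in the PBS group, Cd79b being the exception (6.22, 6.29, 6.04 and 6.17 on PBS replicates 1 to 4). Cd79a, a chain of the B cell receptor, had log2 values of 5.23, 7.86, 4.80 and 7.76 on hBD-2 replicates 1 to 4, against 4.50, 6.60, 4.85 and 6.84 on PBS replicates 1 to 4. Pax5, the B cell transcription factor, was at 4.51, 6.22, 4.35 and 6.15 with hBD-2 and 4.60, 5.14, 4.29 and 5.20 with PBS. None of the 5 passed between the groups, nor had any an unadjusted p under 0.05 in limma, and their summed level on a linear scale was 132 to 515 with hBD-2 and 146 to 300 with PBS. Within the PBS group Il13, Il5, Il10 and Il4ra were lower on replicates 2 and 4 than on 1 and 3, and within the hBD-2 group none of these 4 genes divided that way. For Il13 the values of PBS replicates 2 and 1 were nearly equal, at 5.55 and 5.56.

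Of 9 myeloid markers 1 fell, where 3.66% of all genes fell, and 6 had log2 fold changes above 0. Of the 9, 3 had an unadjusted p under 0.05 in limma, where 22.3% of all genes did. The 1 that fell was Itgam, the alpha chain of an integrin, at 3.99 ± 0.130 with hBD-2 and 4.61 ± 0.352 with PBS (SD, n = 4 each, adjusted p in limma = 0.0461). That call was lost without any of 7 single arrays, PBS replicate 1 being the exception (highest adjusted p in limma = 0.126). Itgam was under the floor on all hBD-2 arrays and on PBS replicate 1. Cd14 and C1qa had log2 fold changes of 0.32 and 0.31 (adjusted p in limma = 0.0740 and 0.187) and lay under the floor on all arrays, and the summed level of the 9 was 131 to 177 with hBD-2 and 130 to 162 with PBS. Of 4 natural killer cell and NKT cell markers none passed, nor had any an unadjusted p under 0.05 in limma. Ncr1 and Klrb1c were under the floor on all arrays, and Eomes and Zbtb16 above it on all. The summed level of the 4 was 428 to 532 with hBD-2 and 520 to 615 with PBS. Most of that sum was Eomes, at log2 values of 8.54 to 8.87 with hBD-2 and 8.79 to 9.10 with PBS. It therefore says little of Ncr1 and Klrb1c.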
